A study of Mus musculus with 6 samples.

Results

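The cells described here are the goblet cells of differentiated mouse intestinal epithelial monolayers after 13 h of tunicamycin, set against goblet cells treated with DMSO. A cell was included where its deposited name ends in the authors' class goblet and at most 25% of its unique molecular identifiers (UMIs, each standing for a captured RNA molecule) came from the mitochondrial genome. This gave 366 goblet cells of 3944 cells kept in the 4 libraries compared, out of 5122 cells deposited in 6 libraries. DMSO replicates 1 and 2 held 105 and 109 goblet cells and the 13 h replicates 77 and 75, and the raw UMIs of these cells were summed per library. The sources used here do not say how the authors assigned the classes.

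The series asks, by its title, which transcriptional programs decide the outcome of stress in the endoplasmic reticulum (ER). All libraries came from organoid-derived monolayers from mice labelled as Rosa26-floxed STOP-Cas9 crossed with cmv-cre, on B6, so the Cas9 allele and the Cre are shared by treated and control cells. Spheroids were dissociated, plated on Matrigel-coated transwell inserts and moved to low L-WRN medium to differentiate. The labels give small intestine as the tissue but colonic spheroids as the starting culture, and do not settle which holds. Both groups received DMSO on the morning of differentiation day 3, and 0.5 µg/ml tunicamycin was added later to the 13 h group. Both were harvested on the morning of day 4, after dead cells had been depleted with a kit. The labels do not say whether replicates came from separate mice, so that the p-values measure the spread between these libraries, which may in part be technical.

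Goblet cells fill apical granules with mucins, trefoil peptides and other secreted proteins, and most of that cargo is folded, disulfide-bonded and glycosylated in the ER. Tunicamycin inhibits the enzyme encoded by Dpagt1, which starts the dolichol-linked sugar that is transferred to asparagines of nascent proteins, and unfolded glycoproteins then accumulate. The unfolded protein response that follows has 3 known arms: ATF6 and IRE1-XBP1, which raise chaperones and degradation factors, and PERK-ATF4, which slows translation and raises amino acid genes and CHOP (Ddit3).

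Markers of the labelled cell type were read in each library. The authors may have assigned the classes from these same counts, so the levels describe the class and are not an independent check. Muc2, the gel-forming mucin of the intestine, stood at 1626 and 1371 UMIs per 1000000 UMIs (CPM) in the DMSO goblet cells and at 503 and 612 CPM at 13 h. Levels of Atoh1, the transcription factor that sets the secretory lineage, were 594 and 519.8 CPM in DMSO and 426 and 452 CPM at 13 h. Clca1, a secreted mucus-processing protein, was at 3814 and 2345 CPM and then 2996 and 2236 CPM, and Agr2, an ER disulfide isomerase needed for mucin folding, at 3758 and 3472 CPM and then 5285 and 5715 CPM. In enterocytes of the same libraries, the Muc2 level was 0.799 and 0.527% of that in goblet cells under DMSO and 1.86 and 1.16% at 13 h. On the scale of the fit of both classes, Agr2 was at 3926 and 3606 CPM in DMSO goblet cells and 8.03 and 6.75 CPM in DMSO enterocytes, and Clca1 at 3985 and 2435 CPM and 12.9 and 10.1 CPM. In every library all 4 markers were thus many times higher in the goblet sum than in the enterocyte sum. After thinning each cell to 5000 UMIs, 79.4 and 75.5% of DMSO goblet cells and 66.7 and 75.7% of 13 h goblet cells held an Atoh1 UMI, against 0.968 and 0.977% and 0.880 and 0.833% of enterocytes.

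Depth was similar between the groups. Goblet UMIs summed to between 1052495 and 1363224 per library, and the median goblet cell held 11664 and 11573 UMIs in DMSO and 12927 and 11997 at 13 h. Goblet cells made up 8.91 and 9.36% of kept cells in DMSO and 9.87 and 9.14% at 13 h. The exact binomial 95% intervals (Clopper-Pearson), which cover counting error only, ran from 7.35% to 10.7% in DMSO replicate 1 and from 7.87% to 12.2% in 13 h replicate 1, and these intervals overlap. No tuft, leukocyte or stromal marker reached the level needed for testing. Markers of enterocytes were present at 0.553 and 0.519% of goblet UMIs in DMSO and 0.325 and 0.328% at 13 h, and 7 of that list's 30 genes had no UMI in any of the 4 goblet sums. Of these, Fabp1, Lct and Slc2a2, all of absorptive cells of the small intestine, had none in the enterocyte sums either. In enterocytes Aqp8 reached at most 0.0597 CPM of total UMIs (DMSO replicate 2). Car4, Dpp4 and Slc26a3 reached at most 0.0766, 0.153 and 0.536 CPM there (13 h replicate 2). With levels this low in enterocytes, none of the 7 genes bears on enterocyte RNA in the goblet sums. The brush border phosphatase gene Alpi reached 17.5 and 18% of its enterocyte level in DMSO goblet cells and 14.1 and 17.7% at 13 h. Such shares differed widely over the list. In DMSO they were 9.21 and 24.3% for Apoc3, 71.1 and 71.5% for Fabp2, 139 and 115% for Rbp2 and 145 and 141% for Krt20. No cell barcode was shared between goblet cells of the 4 libraries, and 5 of the 366 cells had been called doublets.

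Promoter sequences of 7 genes with large changes are shown first, each holding a motif of a pathway that the results turn on. ERSE, the ER stress response element bound by ATF6 with NF-Y, was searched as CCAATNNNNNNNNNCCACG, and the amino acid response element of ATF4 as TGATGNAA. ISRE, the interferon-stimulated response element, was searched as GAAANNGAAA, and was added after the expression values were seen. All searches used both strands of the 250 bases before and 50 bases after each RefSeq gene start on GRCm38.p6. The sequences below are written 5' to 3' on the gene's strand, with each match in capitals; a match read on the other strand appears as its reverse complement. Hspa5 (chr2:34771840-34772089, plus strand) is shown for the 250 bases before its start, with the match beginning 65 bases before it. For Creld2 (chr15:88819475-88819583, plus strand) and Derl3 (chr10:75893197-75893305, plus strand), which rose with it, the stretch around the match is given.
Hspa5 promoter: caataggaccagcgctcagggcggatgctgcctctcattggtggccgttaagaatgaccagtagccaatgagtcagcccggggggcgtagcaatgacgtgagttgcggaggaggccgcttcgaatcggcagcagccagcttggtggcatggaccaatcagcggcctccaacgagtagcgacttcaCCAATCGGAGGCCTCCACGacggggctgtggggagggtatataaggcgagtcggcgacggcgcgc
Creld2 promoter: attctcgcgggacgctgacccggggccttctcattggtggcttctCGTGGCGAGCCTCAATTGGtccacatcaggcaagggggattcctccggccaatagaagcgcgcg
Derl3 promoter: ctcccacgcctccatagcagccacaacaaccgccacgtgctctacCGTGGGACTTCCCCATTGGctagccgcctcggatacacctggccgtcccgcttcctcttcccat

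Asns, asparagine synthetase (chr6:7693210-7693277, minus strand), and Chac1, a glutathione-degrading enzyme (chr2:119351004-119351101, plus strand), stand for the ATF4 targets that rose, with the amino acid response element in capitals.
Asns promoter: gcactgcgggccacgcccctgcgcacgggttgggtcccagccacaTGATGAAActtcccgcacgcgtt
Chac1 promoter: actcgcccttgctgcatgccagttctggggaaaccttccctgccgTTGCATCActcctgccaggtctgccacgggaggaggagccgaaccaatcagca

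Ifit1 (chr19:34640740-34640858, plus strand) and Isg15 (chr4:156200830-156200941, minus strand), both interferon-stimulated, stand for the genes that fell most, and carried 2 and 3 matches to the ISRE, those of Isg15 overlapping each other.
Ifit1 promoter: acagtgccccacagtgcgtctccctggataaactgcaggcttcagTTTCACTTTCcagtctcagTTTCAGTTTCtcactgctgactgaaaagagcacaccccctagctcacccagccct
Isg15 promoter: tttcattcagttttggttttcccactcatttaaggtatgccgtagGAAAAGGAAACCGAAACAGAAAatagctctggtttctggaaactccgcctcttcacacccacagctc

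The ERSE letters stood in 3.47% of the promoters of genes that rose at least 2-fold, in 1.65% of those of all genes that rose, in 0.209% of those of the 6225 genes tested that had a RefSeq promoter, and in 0.137% of all 27025 genes with one. Of the 13 tested genes that held it, 11 rose and 1 fell. Among ER chaperones it was found in Hspa5, Hsp90b1, Calr, Canx, Creld2 and Dnajc3. The amino acid response element stood in 10.1% of promoters of genes that rose at least 2-fold, and in 2.67% of those of genes tested. It also stood in 4.51% of those of all genes with a promoter and 3.93% of those of genes that fell at least 2-fold. Its holders included Atf3, Trib3, Chac1, Nupr1, Vldlr, Asns, Pycr1, Got1, Slc7a11 and Slc1a4. Idi1 and Ifit1bl1, of the sterol and interferon lists, held it too. ERSE-II (ATTGGNCCACG) stood in 0.451% of promoters of genes that rose and 0.112% of those tested, and was found in Herpud1 and Dnajb11. The core of the XBP1 site UPRE (TGACGTGG) stood in 1.95% and 1.09%, respectively, and in 1.39% of promoters of genes that rose at least 2-fold. ISRE letters were in 14.4% of promoters of genes that fell at least 2-fold, against 3.81% of those tested, and in 11 of the 16 interferon response genes with a promoter. The sterol regulatory element, searched as TCACNCCAC and also added later, was in 2.16% of promoters of genes that fell and 1.46% of those tested. Of the 16 sterol synthesis genes with a promoter, 1, Hmgcs1, held it. None of the 9 secreted mucus genes with a promoter held any of these 6 motifs in the window. These shares describe letters in the window and were not tested.

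To ask which genes differed, goblet sums of all 6 libraries were fitted together and the 13 h group was compared with DMSO with edgeR's quasi-likelihood F test. Calls of a rise or fall rest on a Benjamini-Hochberg adjusted p below 0.05 over all genes tested, and fold changes are log2 values with the standard error of the fit (SE). Of 7839 genes tested, 849 rose (10.8%) and 905 fell (11.5%), together 22.4%, and the median of all log2 fold changes was -0.01. At least a 2-fold change was seen in 368 genes that rose and 302 that fell. In each of the 1754 genes called, both 13 h libraries lay beyond both DMSO libraries. Scaling by total counts in place of the trimmed mean of M-values (TMM) moved the median of all genes to 0.16 and the split to 1256 higher and 580 lower (68.4% of calls higher, against 48.4%). Leaving out DMSO replicate 1 left 500 higher and 533 lower, and leaving out 13 h replicate 1 left 559 and 566. None of the genes called changed sign in these fits. DESeq2 called 425 and 372.

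**Figure D1:**
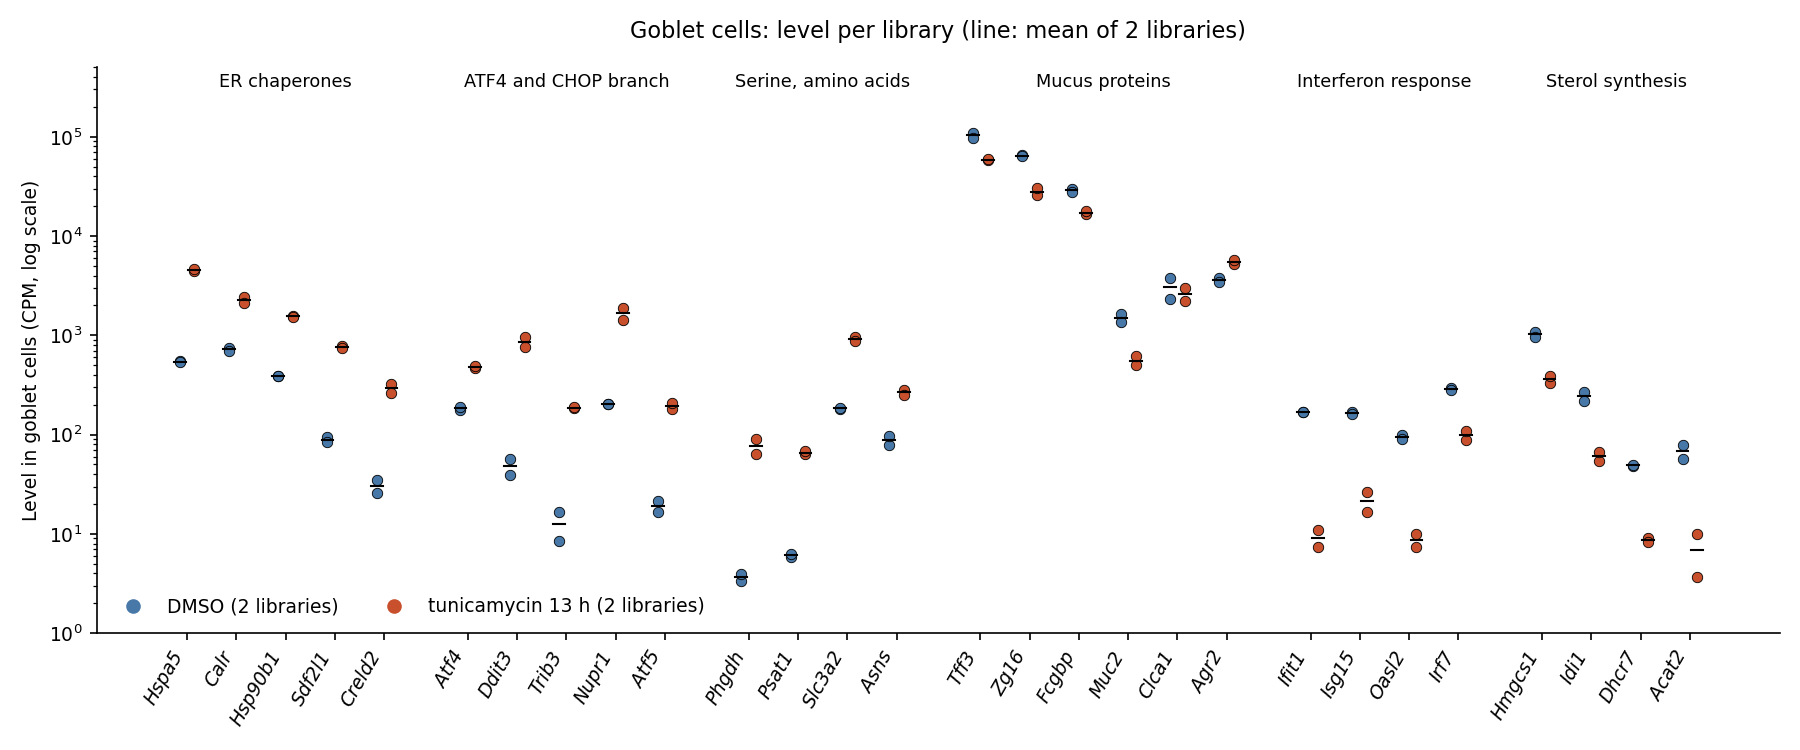
Level of 28 genes in goblet cells on a log axis in CPM, 1 point per library, DMSO in blue and tunicamycin 13 h in orange, with a line at the mean of 2 libraries. Hspa5 rose from 549 and 539 to 4432 and 4658 CPM and Ifit1 fell from 169 and 168 to 11 and 7.33 CPM; of the genes drawn, the groups overlapped in Clca1.

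Chaperones of the ER lumen rose as a group. Hspa5 (BiP, the ER Hsp70) stood at 549 and 539 CPM in the DMSO libraries and 4432 and 4658 CPM at 13 h, an 8.36-fold rise (log2 3.06 (SE 0.10), adjusted p = 4.8e-14). Both treated libraries lay far above both controls, and their own difference was small beside the rise. Calr, the lectin chaperone calreticulin, went from 742 and 703 CPM to 2439.7 and 2126 CPM (log2 1.66 (SE 0.10), adjusted p = 4.1e-10). Hsp90b1 (GRP94, the ER Hsp90) rose from 388 and 388 CPM to 1577 and 1540 CPM (log2 2.01 (SE 0.10)). The groups were far apart in each of these genes. Sdf2l1 and Creld2, small ER proteins known as markers of ER stress, had the highest fold changes of the list, at log2 3.11 (SE 0.12) and 3.26 (SE 0.17). Manf, a secreted stress factor of the ER, rose from 489 and 426 CPM to 1808 and 1929 CPM. Of 23 chaperones and cochaperones listed, 22 were tested, 16 rose and none fell, with a median of 1.15. The exceptions, Sdf2, Creld1, Dnajc1, Dnajc10, Dnajc25 and Fkbp11, had log2 values from -0.02 to 1.29 and were not called. The median of all genes tested was -0.01, and leaving out single libraries kept the list between 15 and 17 calls.

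Among disulfide isomerases and ER oxidases, 9 of 19 tested genes rose and none fell (median 0.55). Pdia4 rose from 57.1 and 52.7 CPM to 289.5 and 249.3 CPM and Pdia6 from 226 and 235 CPM to 862 and 745 CPM, log2 changes of 2.29 (SE 0.14) and 1.80 (SE 0.11). Ero1l, the oxidase that recharges these isomerases, rose from 281 and 365 CPM to 804 and 744 CPM (log2 1.26 (SE 0.12)). Agr2 rose by 1.52-fold (log2 0.61 (SE 0.10), adjusted p = 2.0e-04), from 3758 and 3472 CPM to 5285 and 5715 CPM. Txndc5 was at 241 and 173 CPM and 207 and 215 CPM, with overlapping groups. In the calnexin cycle, which folds glycoproteins by their sugars, 7 of 9 rose, among them Lman1, a cargo receptor, from 48.7 and 43.2 CPM to 101 and 112 CPM. The glucosidase subunit Ganab (log2 0.13 (SE 0.15)) and Mogs (log2 0.55 (SE 0.43)) were not called.

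ER-associated degradation, which returns misfolded proteins to the cytosol for the proteasome, had 12 of 31 genes higher and 3 lower (median 0.33). Derl3, a derlin of the channel complex, had 0 UMIs in both DMSO sums and 38 and 29 UMIs at 13 h, and was at least 25.2-fold higher against a floor of 3 UMIs over the DMSO group. Herpud1, its adaptor, rose from 145 and 187 CPM to 605 and 651 CPM (log2 1.92 (SE 0.13)), and the ligase Syvn1 (HRD1) and its partner Sel1l by 1.70 and 1.78. Rnf185, Rnf5 and Svip, of which the first pair are membrane ligases, fell by 0.78, 0.36 and 0.54 on the log2 scale. With total counts, with DESeq2 or without DMSO replicate 1 none of these 3 was called, and without each of DMSO replicate 2, 13 h replicate 1 and 13 h replicate 2 only Svip was. Proteasome subunits rose in 3 of 31 cases (median 0.18), Psmc2, Psmc6 and Psmd7, a share near the 10.8% of all genes that rose. They rose in 11 cases with total counts, in 0 by DESeq2 and in 1 without 13 h replicate 1. Psmc6 and Psmd7 were not called without DMSO replicate 1 (adjusted p = 0.1 and 0.12), DMSO replicate 2 (0.12 and 0.16) or 13 h replicate 1 (0.33 and 0.5).

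The enzyme complex that uses the sugar also rose. Of the 12 oligosaccharyltransferase subunits, which transfer the sugar, 8 rose and none fell (median 0.55). Krtcap2 went from 262 and 299.6 CPM to 735 and 631 CPM (log2 1.28 (SE 0.12)), and the catalytic subunits Stt3a and Stt3b rose by 0.71 and 0.82. Dad1 was at 857 and 879.9 CPM and 845 and 786 CPM and was not called. Dpagt1, the drug's target, stood at 48.7 and 40.9 CPM in DMSO and 47.6 and 52.2 CPM at 13 h (log2 0.16 (SE 0.20), adjusted p = 0.64), and its groups overlapped. Of the other genes of dolichol-linked sugar assembly, 5 of 19 tested rose, Alg11, Alg12, Alg14, Alg5 and Nus1, beside 10.8% of all genes tested. Without DMSO replicate 1 1 of the list was called, without DMSO replicate 2 or by DESeq2 0, and without 13 h replicates 1 and 2 2 and 1. In sugar supply, 6 of 19 rose (median 0.24), 3 without DMSO replicate 1 and 3 without 13 h replicate 1. Gfpt1, the rate-limiting enzyme of the hexosamine pathway, rose from 88.2 and 92 CPM to 182 and 215 CPM and the ER nucleotide transporter Slc35b1 from 159 and 149 CPM to 372 and 379 CPM. Translocon, signal peptidase and signal recognition genes rose in 18 of 24 cases (median 0.54), with Sec61a1, the pore subunit, at 181 and 184 CPM and then 294 and 336 CPM. Without DMSO replicate 2, 10 of that list were called. Of genes for ER export and retrieval, 13 of 44 rose (median 0.23), the highest being the retrieval receptor Kdelr3, from 4.20 and 3.93 CPM to 14.7 and 26.6 CPM. The same 10.8% of all genes stands beside the other lists of this paragraph.

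Of 15 stress sensors and regulators tested, 3 rose and 2 fell, beside the 22.4% of all genes called. Ern1 (IRE1 alpha) was at 9.24 and 11 CPM and 13.7 and 24.7 CPM (log2 0.92 (SE 0.38), adjusted p = 0.091) and Ern2, the IRE1 form typical of mucous epithelium, at 29.4 and 24.4 CPM and 19.2 and 23.8 CPM (adjusted p = 0.44). Neither passed the test, and the Ern2 values rest on 35 and 31 UMIs in DMSO. Xbp1, whose RNA is spliced by IRE1, rose from 195 and 146 CPM to 311 and 302 CPM (log2 0.85 (SE 0.13), adjusted p = 7.9e-05), and Atf6 from 40.3 and 40.1 CPM to 77.9 and 72.4 CPM. Spliced and unspliced Xbp1 cannot be told apart in these gene counts. Creb3l4, an ER-anchored factor related to ATF6, fell from 20.2 and 26.7 CPM to 4.58 and 11 CPM (log2 -1.58 (SE 0.41)). That call was lost without DMSO replicate 2 (adjusted p = 0.091) and without 13 h replicate 1 (adjusted p = 0.12). The members called were Xbp1, Atf6 and Bax, which rose, and Creb3l4 and Tmbim6, which fell. Bax, a pore former that also binds IRE1, was at 97.5 and 101 CPM and 157 and 131 CPM, and Tmbim6, an inhibitor of Bax and IRE1, at 1045 and 1149.6 CPM and 869 and 839.7 CPM. Without DMSO replicate 2 neither Bax nor Tmbim6 was called (adjusted p = 0.072 and 0.13). Bax was also not called without DMSO replicate 1 (adjusted p = 0.12), without 13 h replicate 1 (0.19) and by DESeq2 (0.1), and Tmbim6 without 13 h replicate 2 (0.085) and with total counts (0.17). Qrich1, a transcription factor known as a late effector of ER stress, was at 37 and 45.6 CPM and 47.6 and 55 CPM (log2 0.31 (SE 0.20), adjusted p = 0.29), with both 13 h libraries above both controls but no call.

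The PERK-ATF4 arm rose strongly. Ddit3, the pro-death factor CHOP, went from 39.5 and 57.4 CPM to 755 and 963 CPM, 17.6-fold (log2 4.14 (SE 0.16), adjusted p = 7.3e-13). Atf4 itself, controlled mainly through translation, rose less, from 177 and 189.5 CPM to 465 and 486 CPM (log2 1.37 (SE 0.12)). Trib3, a pseudokinase that restrains ATF4 and CHOP, rose from 8.40 and 16.5 CPM to 186 and 188 CPM (log2 3.88 (SE 0.21)). These 3 genes had groups that did not overlap. The partners and targets Atf5, Cebpb and Nupr1 rose by 3.35, 3.49 and 3.04 on the log2 scale. Ppp1r15a (GADD34), which undoes the translation block, rose from 21 and 24.4 CPM to 60.5 and 72.4 CPM, while its constitutive counterpart Ppp1r15b was at 90.7 and 88.1 and 54.1 and 81.6 CPM, not called. Sesn2, a stress inhibitor of mTORC1, was at 1.68 and 5.50 CPM and 11.9 and 11 CPM, and its call was lost without DMSO replicate 1 (adjusted p = 0.26), 13 h replicate 1 (0.15) or 13 h replicate 2 (0.098). In all, 16 of 18 tested members rose and none fell (median 1.6). The PERK gene Eif2ak3 and Ppp1r15b were the exceptions.

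Every tested gene of amino acid synthesis and transport rose, 20 of 20 (median 1.68), and the remaining 7 listed genes were too low to test. The filter on genes could be passed through treated libraries alone by members low in DMSO, so the count is partly set by it. Phgdh, the first enzyme of serine synthesis, went from 3.36 and 3.93 CPM to 89.8 and 64.2 CPM (log2 4.36 (SE 0.32), adjusted p = 9.4e-09), and Psat1, the next enzyme, from 5.88 and 6.29 CPM to 64.1 and 67.8 CPM. Slc3a2, the heavy chain of several amino acid exchangers, gave the most UMIs of the list, at 181 and 187 CPM and then 965 and 885 CPM. Mthfd2, a mitochondrial folate enzyme, rose from 31.1 and 42.5 CPM to 155 and 186 CPM. Pycr1, the last enzyme of proline synthesis, rose by 2.88 and the cystine carrier Slc7a11 by 1.47 on the log2 scale, and Asns rose 3.02-fold. At least 17 of the list were called without any single library. Among those that lost a call were Got1 and Slc1a5 without DMSO replicate 1 (adjusted p = 0.053 and 0.11), Slc1a5 without 13 h replicate 2 (0.06), and Gpt2 without DMSO replicate 2 or 13 h replicate 1 (0.17 and 0.096). Of the aminoacyl-tRNA synthetases, 13 of 20 rose and none fell (median 0.96). Sars, for serine, went from 103 and 105 CPM to 279 and 280.5 CPM and Eprs, for glutamate and proline, from 31.9 and 38.5 CPM to 149 and 116 CPM. Kars, Dars and Hars were at log2 -0.32, 0.10 and 0.32 and were not called.

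Translation genes rose widely. Of the 84 cytosolic ribosomal protein genes tested, 82 rose and none fell, with a median of 0.79 and a range from 0.31 to 1.38. Their joint share of goblet UMIs was 5.60 and 5.51% in DMSO and 11.1 and 10.5% at 13 h. Rpl27 (log2 0.39 (SE 0.14), adjusted p = 0.054) and Rpl7l1 were the members not called. Ribosomal protein genes have many processed pseudogenes, and reads that match several copies make single values uncertain. Translation factors rose in 16 of 24 cases, among them Eif4ebp1, a brake on cap-dependent initiation, from 210.0 and 180.1 CPM to 564 and 675 CPM and Eef1a1, the elongation factor, from 1395 and 1426 CPM to 2475 and 2203 CPM.

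**Figure D2:**
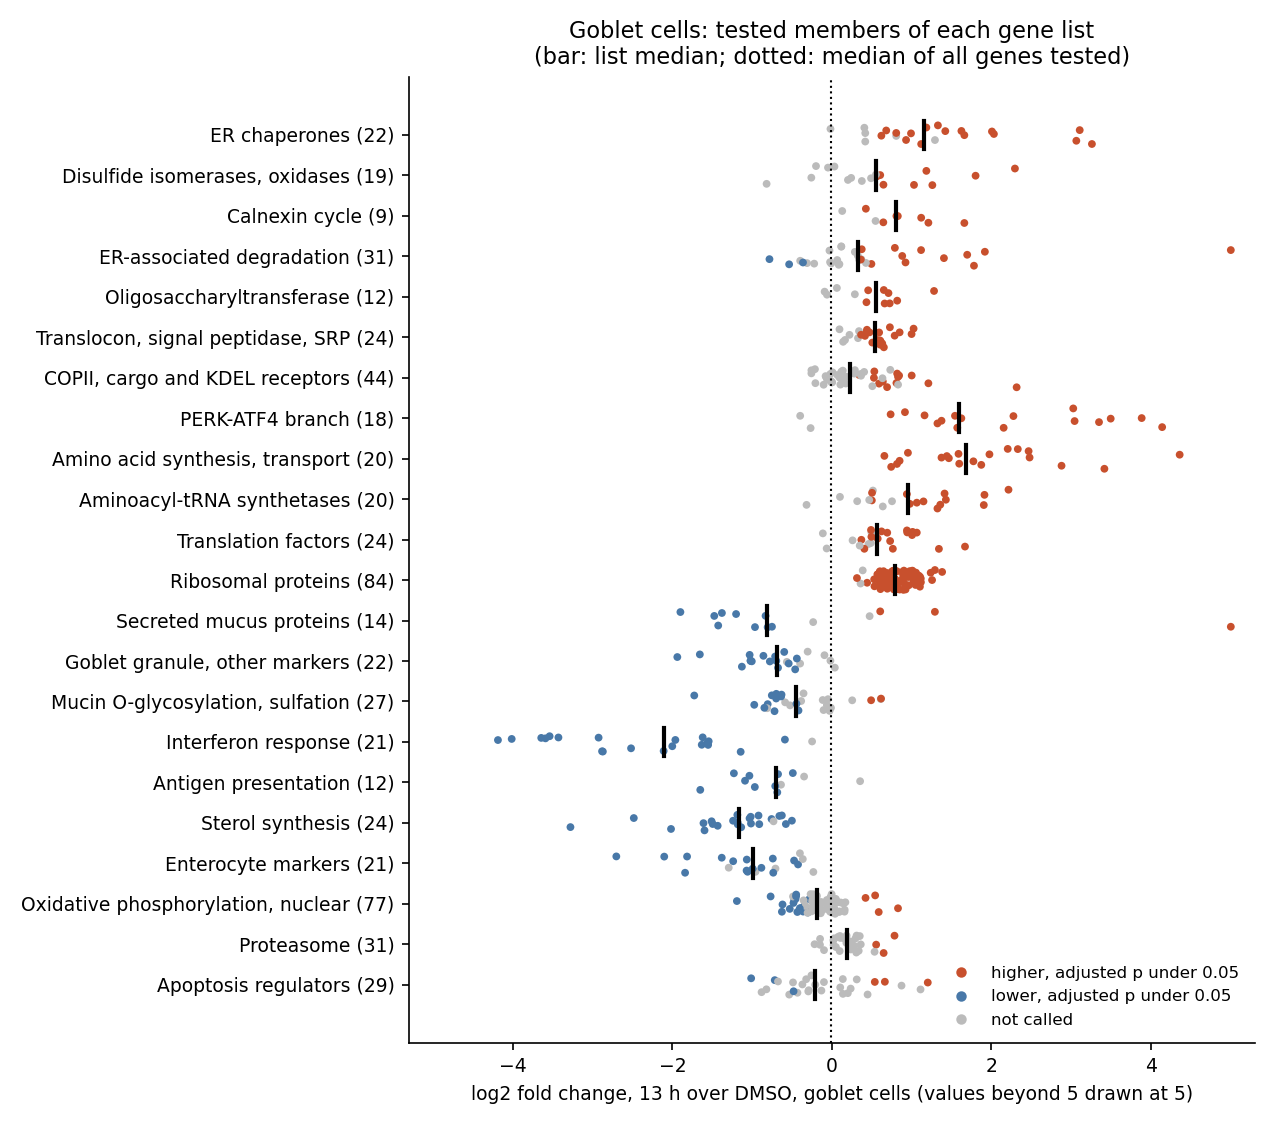
Log2 fold change at 13 h over DMSO of each tested member (number in brackets) of 22 gene lists in goblet cells, with the list median as a bar and the median of all genes tested as a dotted line. Orange points rose and blue points fell, and values beyond 5 are drawn at 5; the 22 tested ER chaperones have a median of 1.15 and the 21 interferon response genes one of -2.11.

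The secreted products of goblet cells fell. Tff3, a trefoil peptide and the most abundant RNA of these cells, stood at 109570 and 96812 CPM in DMSO and 58068 and 60033 CPM at 13 h (log2 -0.81 (SE 0.11), adjusted p = 1.1e-05). Zg16, a lectin that binds bacteria, fell from 65099.9 and 64140 CPM to 25638 and 30566 CPM (log2 -1.20 (SE 0.15)), and Fcgbp, a mucus network protein, from 29954 and 27928 CPM to 16497 and 17886 CPM (log2 -0.75 (SE 0.10)). In each of these genes both treated libraries were below both controls. Together these 3 genes made up 18.8 and 17.6% of goblet UMIs in DMSO and 10.4 and 11.2% at 13 h. Muc2 fell further, 2.69-fold (log2 -1.43 (SE 0.12), adjusted p = 4.3e-08), and the chemokine Ccl6 fell 3.73-fold. The protease inhibitor Spink4 fell 2.60-fold, but its controls differed, at 130.2 and 66.8 CPM, and without DMSO replicate 1 it was not called (adjusted p = 0.098). Clca1 was not called (log2 -0.24 (SE 0.16), adjusted p = 0.34). DMSO replicate 1 was above and replicate 2 within the range of the treated libraries, and without replicate 1 the log2 value turned to 0.16.

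Of 14 secreted mucus genes tested, 9 fell and 3 rose (median -0.82). The 3 that rose were Agr2, Ang4 and Tff2. Ang4, an antimicrobial ribonuclease, was at 115 and 42.5 CPM and 267 and 116 CPM and rose 2.45-fold, but its call was lost without DMSO replicate 2 (adjusted p = 0.14) or 13 h replicate 1 (adjusted p = 0.28). Tff2, the trefoil peptide of gastric mucous cells, had 0 UMIs in DMSO and 10 and 20 UMIs at 13 h, at least 11.3-fold higher against the same floor of 3 UMIs. That call was lost without DMSO replicate 1 (adjusted p = 0.12), without DMSO replicate 2 (adjusted p = 0.066) and without 13 h replicate 2 (adjusted p = 0.057). Lypd8, a protein that keeps flagellated bacteria off the surface, and Guca2a, the hormone guanylin, fell by 0.96 and 0.83 on the log2 scale.

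Granule and O-glycosylation genes fell more often than they rose. Of 22 genes for granules and other goblet features, 16 fell and none rose (median -0.69). Rep15, a binding partner of Rab15, fell from 57.1 and 55.8 CPM to 11.9 and 17.4 CPM (log2 -1.94 (SE 0.25)) and Scin, an actin-severing protein of secretory cells, from 43.7 and 37.7 CPM to 16.5 and 9.17 CPM. Rab27b, a small GTPase of granule docking, fell by 0.71 on the log2 scale, a call lost without 13 h replicate 1 (adjusted p = 0.059). Hepacam2, a membrane protein of secretory cells, fell from 392 and 339 CPM to 189.6 and 236 CPM and the protease Tpsg1 from 607 and 618 CPM to 385 and 424 CPM. Vamp8 (log2 0.04 (SE 0.10)) and Myo5b (log2 -0.09 (SE 0.16)) were not called. In mucin O-glycosylation and sulfation, 12 of 27 fell and 2 rose (median -0.44). The sulfotransferase gene Gal3st2 went from 44.5 and 40.9 CPM to 7.33 and 18.3 CPM, the branching enzymes Gcnt1 and Gcnt3 fell by 0.85 and 0.72 on the log2 scale, and the sialyltransferase St3gal4 fell from 679.7 and 695 CPM to 449.8 and 434 CPM. The 2 that rose were C1galt1, which makes the core (log2 0.49 (SE 0.17)), and Galnt6, an initiating transferase (log2 0.62 (SE 0.14)). Without DMSO replicate 2, 13 h replicate 1 or 13 h replicate 2, 1 gene of the list was higher, and the block on replicate number left C1galt1 at adjusted p = 0.053. Total counts left 12 granule genes and 7 O-glycosylation genes lower, with none of the granule list and 3 of the O-glycosylation list higher, and DESeq2 left 7 and 7 lower. Without DMSO replicate 1 these counts were 10 and 7, 8 granule genes were lower without 13 h replicate 1, and 7 O-glycosylation genes without DMSO replicate 2.

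Of 17 lineage factors tested, 6 fell and 1, Xbp1, rose, beside the 22.4% of all genes called in either direction. Atoh1 fell 1.27-fold (log2 -0.34 (SE 0.12), adjusted p = 0.044), a call lost with total counts (adjusted p = 0.29), without DMSO replicate 1 (adjusted p = 0.34) and without 13 h replicates 1 and 2 (adjusted p = 0.22 and 0.099). Spdef, which drives goblet maturation, was at 50.4 and 59 CPM and 34.8 and 49.5 CPM and Foxa3 at 94.1 and 95.1 and 71.5 and 108 CPM, neither called. Elf3, an epithelial Ets factor, fell from 584 and 629.9 CPM to 412 and 397 CPM and Hes6 from 165 and 180.1 CPM to 80.6 and 96.2 CPM. With total counts 3 of the list were lower, without DMSO replicate 1 3, and without 13 h replicate 1 2. Genes known as targets of RNA decay by IRE1 had 1 member higher (Rpn1, also an oligosaccharyltransferase subunit) and 1 lower (Tapbp, also of antigen presentation) of 7. Bloc1s1, the best known of them, was at 25.2 and 24.4 CPM and 22.9 and 20.2 CPM.

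Markers of enterocytes within the goblet sums also fell, 15 of 21 tested (median -0.99), and in the enterocyte sums 22 of 23 fell. Fabp2 went from 467 and 411 CPM to 97.1 and 152 CPM and Krt20, a keratin shared by mature cells of both classes, from 1829.8 and 1794 CPM to 1038 and 926 CPM. Without 13 h replicate 1, 9 of the 21 were lower in goblet cells. The part of enterocyte RNA in these goblet values was not tested.

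**Figure D3:**
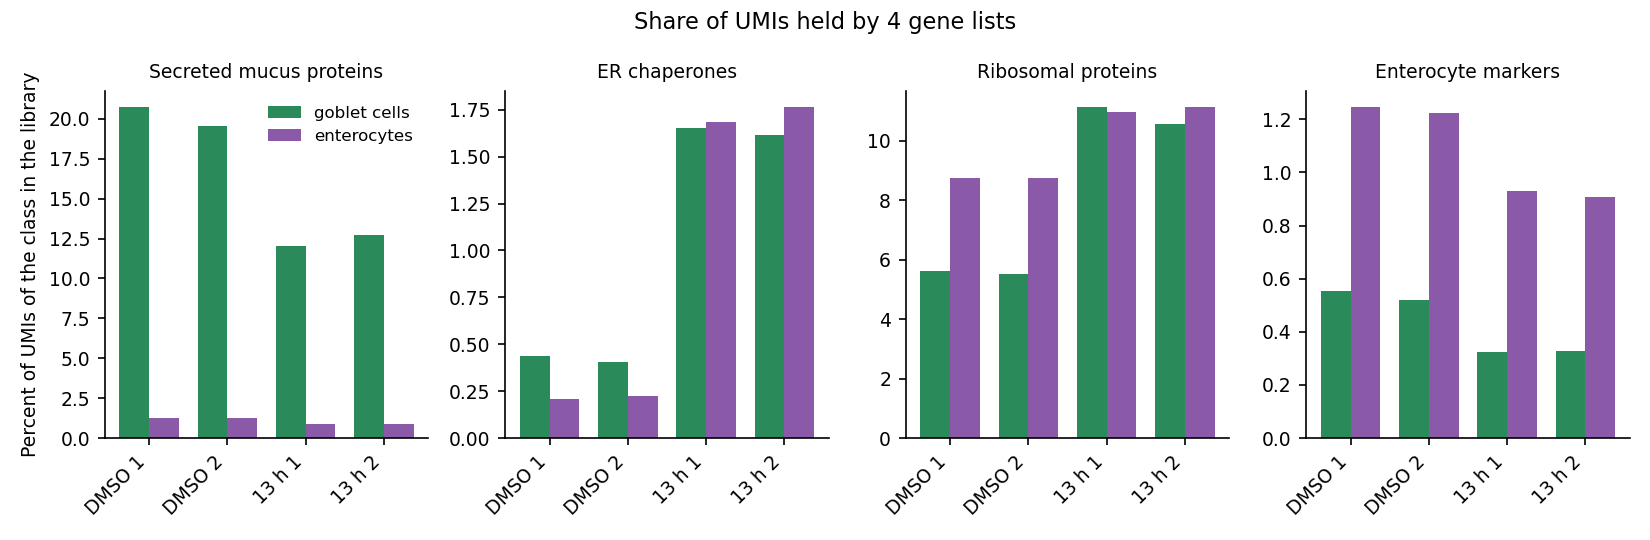
Percent of the UMIs of goblet cells (green) and enterocytes (purple) in each library that came from 4 gene lists, with axes starting at 0. Secreted mucus proteins held 20.7 and 19.5% of goblet UMIs in DMSO and 12 and 12.8% at 13 h, while ribosomal proteins went from 5.60 and 5.51% to 11.1 and 10.5%.

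Genes induced by interferon fell at 13 h. Ifit1, an antiviral RNA-binding protein, was at 169 and 168 CPM in the controls and 11 and 7.33 CPM at 13 h, 18.2-fold lower (log2 -4.19 (SE 0.21), adjusted p = 4.2e-11). Isg15, a ubiquitin-like modifier, fell from 169 and 159.6 CPM to 16.5 and 26.6 CPM (log2 -2.92 (SE 0.21)) and Oasl2 from 98.3 and 91.2 CPM to 10.1 and 7.33 CPM (log2 -3.43 (SE 0.25)). The controls differed little in these genes, and both treated libraries lay far below them. Upstream, the transcription factor Irf7 fell from 296 and 282 CPM to 88 and 110 CPM, and the interferon signal transducer Stat2 fell by 1.96 on the log2 scale. Of 21 tested, 20 fell and none rose, with a median of -2.11. Bst2, an antiviral tether, was the member not called (log2 -0.25 (SE 0.27)). Rtp4 and Xaf1, both induced by interferon, were among the 15 largest falls, at 52.1 and 49.5 CPM and then 1.83 and 6.42 CPM, and 56.3 and 39.3 CPM and then 5.50 and 7.33 CPM. So was Apol9a, an apolipoprotein L, from 53.8 and 62.1 CPM to 0.916 and 6.42 CPM. Without single libraries the list kept at least 16 calls. In antigen presentation, 9 of 12 fell and none rose. B2m, the light chain of MHC class I, fell from 1038 and 1080.4 CPM to 476 and 558 CPM, and the immunoproteasome subunit Psmb9 from 44.5 and 53.5 CPM to 13.7 and 17.4 CPM.

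Sterol synthesis fell as widely. Of 24 genes tested, 23 fell and none rose (median -1.16). Hmgcs1, which makes the precursor of mevalonate, went from 1086 and 961 CPM to 333 and 386 CPM (log2 -1.51 (SE 0.14), adjusted p = 1.1e-07). Idi1, the isomerase that makes the second isoprene unit, fell from 271 and 219 CPM to 54.1 and 66.9 CPM (log2 -2.02 (SE 0.16)), and Dhcr7, at the last step to cholesterol, from 48.7 and 49.5 CPM to 9.16 and 8.25 CPM (log2 -2.48 (SE 0.28)). No group overlapped another in these genes. Acat2, which condenses acetyl-CoA, had the largest fall of the list, 9.70-fold, from 78.1 and 57.4 CPM to 3.66 and 10.1 CPM. Insig1, the sterol sensor's partner, fell by 1.43 on the log2 scale. Tm7sf2, a sterol reductase, was the member not called (log2 -0.73 (SE 0.27)). At least 22 genes were lower without any single library, and 22 with total counts.

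Other lists moved in part. The growth factor Areg, a ligand of the EGF receptor, rose from 34.4 and 22.8 CPM to 216 and 227 CPM (log2 2.96 (SE 0.17)) and its relative Btc by 2.02 on the log2 scale. In that list 3 of 9 rose and 1, Erbb3, fell (log2 -0.69), a call lost by DESeq2 (adjusted p = 0.052). Hormones of stress rose in 3 of 6 cases, beside 10.8% of all genes tested: Gdf15, known to suppress appetite, from 2.52 and 1.57 CPM to 46.7 and 38.5 CPM, Adm2 from 3.36 and 3.93 CPM to 37.6 and 55 CPM and Stc2 from 5.04 and 7.86 CPM to 48.6 and 58.7 CPM. With such low DMSO levels these 3 genes passed the filter through treated libraries, so the count is partly set by it. The other 2 listed genes were not tested. Adm, of the same list, fell (log2 -0.88), a call lost by DESeq2 (adjusted p = 0.2). Ccl20, a chemokine for lymphocytes and dendritic cells, rose from 209 and 195 CPM to 730.2 and 731 CPM. Cyb5r1, a cytochrome b5 reductase, had the largest fold change among genes of at least 20 CPM on average, with 0 and 2 UMIs in DMSO and 60 and 50 UMIs at 13 h. Hmox1, the heme oxygenase, rose from 4.20 and 2.36 CPM to 29.3 and 36.7 CPM. Of 21 NRF2 targets, however, 5 rose and 4 fell, beside 10.8% and 11.5% of all genes tested. Apoptosis regulators had 3 higher and 3 lower of 29. Bax, Diablo and Casp4 rose, and Casp1 and Casp8 were among those that fell. Each of these 5 calls was lost without at least 1 DMSO or 13 h library, with adjusted p up to 0.19 for Bax, 0.15 for Diablo and 0.16 for Casp8 (without 13 h replicate 1, DMSO replicate 1 and DMSO replicate 1), and 0.27 for Casp4 and 0.098 for Casp1 (without DMSO replicate 1 and 13 h replicate 2). The share of calls, 6 of 29, is near the 22.4% of all genes. Without DMSO replicate 1 or 13 h replicate 1, 0 members were higher, without DMSO replicate 2 or 13 h replicate 2 1, and without 13 h replicate 2 1 was lower. The mitochondrial chaperones Hspa9 and Hspe1 rose by 2.89 and 1.39, while cytosolic Hspa8 was at 689 and 677 CPM and 672 and 544 CPM. Nuclear genes of oxidative phosphorylation had 4 higher and 17 lower of 77 (median -0.18). Of all genes tested, 10.8% were higher and 11.5% lower, so the calls of this list leaned to falls. That lean depends on scaling, as total counts left 6 lower and 5 higher. Fewer were also lower when single DMSO or 13 h libraries were left out, with medians between -0.21 and -0.08.

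The 15 genes with the largest falls also held members of no list. Adh6a, an alcohol dehydrogenase, fell from 94.9 and 163 CPM to 14.7 and 16.5 CPM (log2 -3.05 (SE 0.27)), Xdh, the xanthine dehydrogenase, from 51.2 and 53.5 CPM to 9.16 and 8.25 CPM (log2 -2.58 (SE 0.29)), and Rnf213, a large antiviral ubiquitin ligase, from 43.7 and 30.7 CPM to 9.16 and 2.75 CPM. Among the 15 largest rises, Ppm1j, a protein phosphatase, went from 8.40 and 2.36 CPM to 44.9 and 61.4 CPM (log2 3.31 (SE 0.35)). The adaptor of selective autophagy Sqstm1 rose from 109 and 99.1 CPM to 348 and 299 CPM, but its list had 3 higher and 5 lower of 25, with 1 lower by total counts and 2 or 3 without single DMSO or 13 h libraries other than 13 h replicate 1. In glycolysis 4 of 16 rose and 3 fell. Beside both of these lists, 10.8% of all genes tested rose and 11.5% fell. Aldoc, an aldolase, fell from 102 and 108 CPM to 38.5 and 38.5 CPM and Pkm, pyruvate kinase, from 3730.2 and 3742 CPM to 2628 and 2397 CPM. The genes that rose were 0 without DMSO replicate 1, 2 without DMSO replicate 2 and 1 without 13 h replicate 1.

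Of 15 cytosolic and mitochondrial heat shock genes 4 rose, and 2 without DMSO replicate 1 or without 13 h replicate 2. Among p53 targets 3 of 15 rose, and 0 without DMSO replicate 1 or 13 h replicate 1. Mitochondrially encoded genes were lower in 3 of 12 cases and in 0 with total counts, without DMSO replicate 2 or without 13 h replicate 1. In the metallothionein and zinc list 1 gene, Mt1, rose and 2 fell, Mt1 standing at 152 and 193 CPM and 289.5 and 222 CPM and losing its call without DMSO replicate 1 (adjusted p = 0.35) and without 13 h replicate 1 (adjusted p = 0.33). The zinc transporter genes Slc30a1 and Slc39a4 were the members that fell, of 6 tested in the list. Slc30a1 was not called when any 1 of the DMSO and 13 h libraries was left out (adjusted p = 0.085 to 0.28) or with the replicate block (0.056), and Slc39a4 not without DMSO replicate 2 (0.06). In the list of NF-kB targets and chemokines 1 gene, Ccl20, rose and 3 fell, and 1 without DMSO replicate 1 or 2 and 0 without 13 h replicate 2. Of 5 tested Paneth cell markers, Ang4 rose and Lyz1 and Reg3g fell, Ang4 losing its call as given above without DMSO replicate 2 or 13 h replicate 1. Reg3g, an antibacterial lectin, had 14 and 4 UMIs in DMSO and 0 at 13 h, at least 5.42-fold lower against a floor of 3 UMIs over the 13 h group, and was not called without DMSO replicate 1 (adjusted p = 0.082). Lysozyme, Lyz1, was at 416 and 279.9 CPM and 250.1 and 168 CPM, with adjusted p = 0.19 without DMSO replicate 1 and 0.092 without 13 h replicate 2. Sct, secretin, was the enteroendocrine marker that fell, from 286 and 296 CPM to 143 and 156 CPM. Of 3 tested stem and proliferation markers none was called. The list of NF-kB targets and chemokines had 11 tested members. Beside all lists of this paragraph, 10.8% of all genes tested rose and 11.5% fell.

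The goblet response was then set against that of enterocytes from the same libraries, to ask which genes responded differently in the 2 classes. The difference of the log2 changes, goblet minus enterocyte, was tested in a single edgeR fit over class sums with the library as a block. Of 10458 genes, 155 (1.48%) had a higher and 348 (3.33%) a lower value in goblet cells, together 4.81%. That split depends on scaling: DESeq2 size factors gave 204 and 257 and total counts 271 and 188, as the median difference over all genes moved from -0.08 to -0.01 and 0.08. The share with a higher value was 30.8%, 44.3% and 59% of calls. Without DMSO replicate 1 the counts were 102 and 122, and without 13 h replicate 1 88 and 176.

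ER chaperones rose less in goblet cells than in enterocytes, from a higher level. Hspa5 stood, on the scale of this fit, at 573 and 559 CPM in DMSO goblet cells and 156 and 209.8 CPM in DMSO enterocytes, and at 4469 and 4724 CPM and 4905 and 5016 CPM at 13 h (difference -1.75 (SE 0.10), adjusted p = 4.7e-16). Pdia6 was at 236 and 244 CPM in control goblet cells against 24.6 and 28.3 CPM in control enterocytes, and at 869 and 756 CPM against 655 and 691 CPM at 13 h (difference -2.91 (SE 0.12), the lowest of all genes averaging 20 CPM or more). Hyou1, an ER Hsp110, gave -2.47 (SE 0.33), and Wars, the tryptophanyl-tRNA synthetase, -2.13 (SE 0.14). Over the list, 16 of 22 chaperones had a lower response in goblet cells and none a higher one (median -0.95), as had 9 of 12 oligosaccharyltransferase subunits. Total counts left 15 and 8 of these, and leaving out DMSO replicate 1 11 and 6. The median ratio of goblet to enterocyte level over the chaperones was 2.19 in DMSO and 1.07 at 13 h, each computed after adding 0.5 CPM. Xbp1 and Agr2 gave differences of -1.22 (SE 0.13) and -1.42 (SE 0.18), but Agr2 stayed at 5329 and 5796 CPM in goblet cells against 30.4 and 28.3 CPM in enterocytes. The enterocyte level of Agr2 was 0.231 and 0.208% of the goblet level in DMSO and 0.568 and 0.497% at 13 h. For the goblet product Zg16 these shares were 0.284 and 0.386% and 0.588 and 0.668%. The part of goblet RNA in the enterocyte values of Agr2 was not tested.

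Dpagt1 was at 50.9 and 42.5 CPM in DMSO goblet cells and 16.9 and 14 CPM in DMSO enterocytes, and at 48 and 53 CPM and 38.5 and 37.4 CPM at 13 h (difference -1.18 (SE 0.22), adjusted p = 3.4e-04), and it rose in enterocytes (log2 1.29 (SE 0.09), adjusted p = 2.1e-08). The CHOP gene gave no call for a difference. Ddit3 rose by 4.14 in goblet cells and 4.11 in enterocytes. The difference was -0.01 (SE 0.16), with adjusted p = 1. Trib3 (difference 0.54 (SE 0.26), adjusted p = 0.32) was not called. Cebpb rose more in goblet cells (difference 1.13 (SE 0.25), adjusted p = 0.0024), a call lost without DMSO replicate 1 (adjusted p = 0.06) or DMSO replicate 2 (adjusted p = 0.057).

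Phgdh and Stc2 rose more in goblet cells. Phgdh went from 3.51 and 4.08 CPM to 90.5 and 65.1 CPM in goblet cells and from 2.48 and 2.21 CPM to 11 and 7.37 CPM in enterocytes (difference 2.39 (SE 0.43), adjusted p = 2.3e-04). Stc2, a secreted glycoprotein, was lower in goblet cells than in enterocytes under DMSO, at 5.27 and 8.17 CPM against 15.9 and 14.8 CPM, and higher at 13 h, at 49 and 59.5 CPM against 20.8 and 21.2 CPM (difference 2.55 (SE 0.33)). Gdf15 gave 2.37 (SE 0.53), a call lost without DMSO replicate 2 (adjusted p = 0.41), and Tat, tyrosine aminotransferase, 1.75 (SE 0.33), lost likewise (adjusted p = 0.075). Cyb5r1 gave 2.53 (SE 0.76) with adjusted p = 0.045, which no single DMSO or 13 h library could be left out of without losing the call. For Nts, neurotensin, the goblet sums of 13 h replicates 1 and 2 held 61 and 1 UMIs, and the difference of 2.51 (SE 0.68) turned to -2.97 without replicate 1. Its call was lost without DMSO replicate 1 or 2 (adjusted p = 0.27 and 0.23). Acta1, a muscle actin, did not go 1 way in goblet cells, at 48.3 and 131 CPM and then 137 and 35.3 CPM, and was at 86.8 and 77.9 CPM and then 26.1 and 26.5 CPM in enterocytes. Its positive difference was not called without DMSO replicate 1 or 13 h replicate 1 (adjusted p = 0.34 and 0.9), nor that of Gsta1 without DMSO replicate 2 or 13 h replicate 1 (0.8 and 0.52).

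Ribosomal protein genes had a higher response in goblet cells in 77 of 84 cases and a lower one in 1, Rpl36al (median 0.49). Their share of UMIs was 8.73 and 8.73% in DMSO enterocytes and 10.9 and 11.1% at 13 h, beside 5.60 and 5.51% and 11.1 and 10.5% in goblet cells. Size factors, total counts and totals without the mucus genes gave between 78 and 80 members higher. Fewer were higher without 13 h replicate 1 (56) and without DMSO replicate 1 or 2 (69 in each), and Rpl36al was not called without DMSO replicate 1 (adjusted p = 0.15). Interferon and sterol genes fell further in goblet cells, 11 of 25 and 19 of 24 being lower and none higher. Isg15 went from 176 and 166 CPM to 16.6 and 27 CPM in goblet cells and from 60.03 and 69.99 CPM to 35.2 and 28.5 CPM in enterocytes (difference -1.94 (SE 0.23)), Ifit1 gave -2.30 (SE 0.26) and Acat2 -2.14 (SE 0.37). With total counts, 8 and 14 were lower, and without DMSO replicate 1 4 and 10. Without 13 h replicate 1 these counts were 5 and 10, and without 13 h replicate 2 the interferon count was 7. The difference for Acat2 was not called without 13 h replicate 1 (adjusted p = 0.059). Median goblet to enterocyte ratios went from 1.73 to 0.781 for interferon genes, from 1.89 to 1.07 for sterol genes and from 0.697 to 0.981 for ribosomal protein genes. In the same sums Alpi stayed at 17.5 and 18% of its enterocyte level in DMSO and 14.1 and 17.7% at 13 h, and Apoa4, an apolipoprotein of absorptive cells, at 16 and 26.1% and 11.2 and 16.8%. Other enterocyte markers were not as low, such as Rbp2 at 139 and 115% in DMSO and 96.3 and 159% at 13 h.

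**Figure D4:**
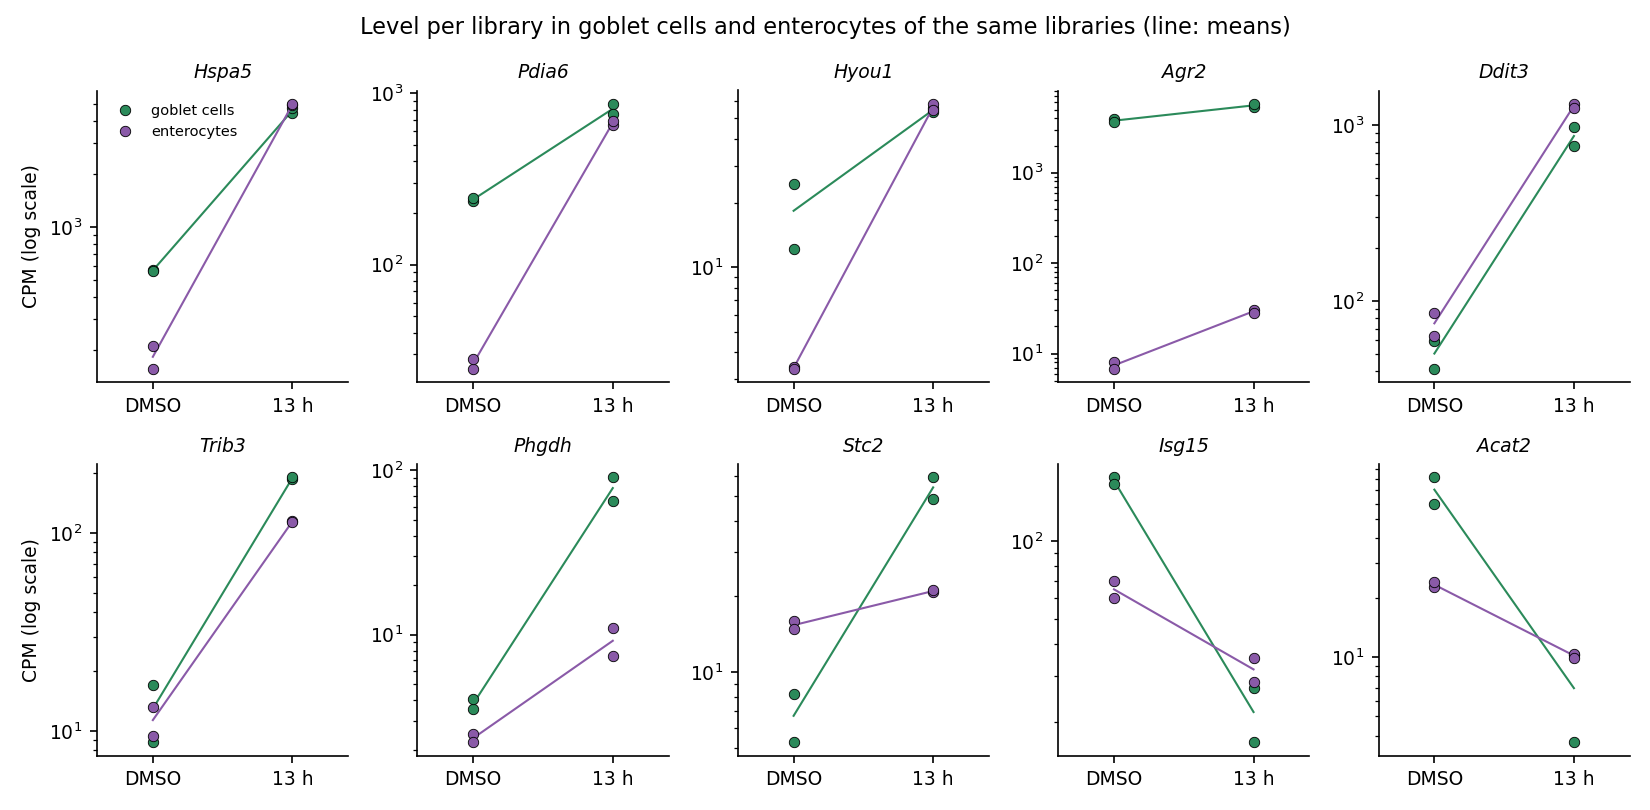
Level of 10 genes in goblet cells (green) and enterocytes (purple) of the same libraries, in CPM on log axes that differ between panels, with 1 point per library and lines between group means. Hspa5, Pdia6 and Hyou1 lay closer between the classes at 13 h than in DMSO, with Hspa5 at 4469 and 4724 CPM in goblet cells and 4905 and 5016 CPM in enterocytes, while Phgdh and Stc2 rose more in goblet cells.

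Finally, the spread over single goblet cells was described, with each cell thinned to 5000 UMIs and shallower cells left out, 8 and 7 in DMSO and 5 and 5 at 13 h. Hspa5 was seen in 79.4 and 70.6% of DMSO cells and 98.6 and 100% of 13 h cells, and the median cell held 2 and 2 UMIs and then 21.5 and 19. Enterocytes also held an Hspa5 UMI, in 46.6 and 46% and 97.4 and 99.3% of cells, so that no class lacking the gene gave a background share, and free RNA in these shares was not tested. Ddit3 was seen in 11.3 and 17.6% and 88.9 and 97.1% (28.6 and 38.5% and 93.5 and 98.7% unthinned), Trib3 in 4.12 and 8.82% and 55.6 and 65.7%, and Derl3, which had no UMI in DMSO goblet cells, in 18.1 and 12.9% at 13 h. Muc2 was seen in 88.7 and 78.4% and 66.7 and 70% of goblet cells, against 2.42 and 1.86% and 2.05 and 1.81% of enterocytes, whose median depths were 15652 and 14757 UMIs in DMSO and 16302 and 16643 at 13 h. Unthinned, Muc2 shares were 89.5 and 88.1% and 83.1 and 81.3%. Tff3 was in every goblet cell of all 4 libraries. It was also in 74.7 and 75.8% of DMSO enterocytes and 53.7 and 57.6% at 13 h, at 1.6 and 1.83% and 2.37 and 2.10% of the goblet level, so that its share of cells does not separate the classes. Alpi was seen in 10.3 and 9.80% and 5.56 and 7.14% of goblet cells and 62.8 and 60.1% and 45.9 and 43.8% of enterocytes. Cells of 1 library are not replicates, and no test was made over them.

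**Figure D5:**
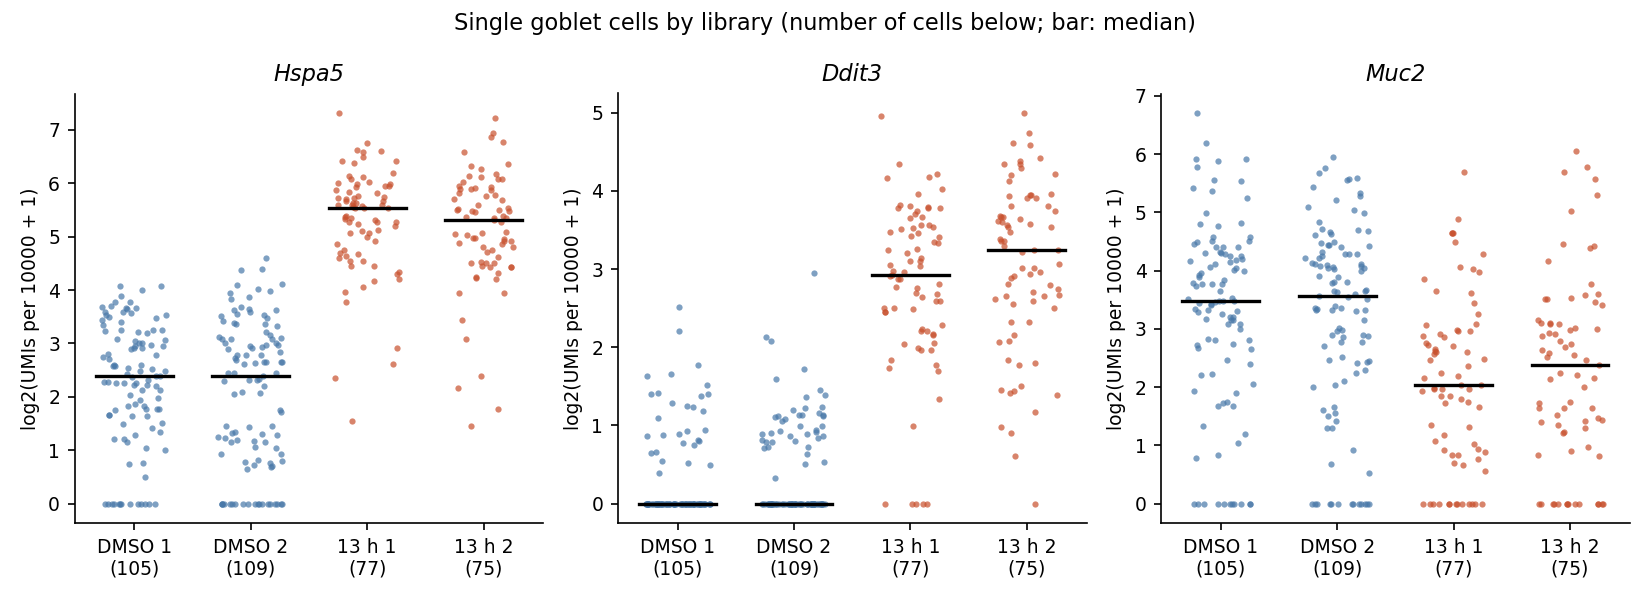
Log2 of UMIs per 10000 plus 1 of Hspa5, Ddit3 and Muc2 in each goblet cell, without thinning, by library, with the number of cells under each library and a bar at the median. The Hspa5 medians of both 13 h libraries lie above those of DMSO, Ddit3 is at 0 in the median DMSO cell, and Muc2 has cells at 0 and high cells in all 4 libraries.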

How the data were processed

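Single-cell 3' RNA libraries (10x Genomics V2, per the labels' protocols) were analysed from the matrix of raw UMI counts that the authors deposited, which covers 27998 genes in 5122 cells. Cell Ranger and mm10 are named in the submitters' processing notes, and the sources used here give neither a version nor the authors' filter on cells. Library and class were read from the deposited cell names. Symbols came from GENCODE vM21, which matched 27645 genes.

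Cells above 25% mitochondrial UMIs were dropped (96 in all, 2 of them goblet cells of these 4 libraries). Scrublet in scanpy 1.11.5 called 31 cells doublets (0.605%), which were kept; leaving them out is an alternative. Counts were summed per library and class, filtered with filterByExpr, scaled by TMM and tested in edgeR 4.0.16 (R 4.3.3) over all 6 libraries, whose spread is shared (biological coefficient of variation 0.0788 in goblet cells, 3 residual degrees of freedom). A gene could pass filterByExpr through a single group in which it was high. Levels are TMM-scaled CPM, relative to the RNA of the class. Those set beside enterocytes come from the fit of both classes. Each library's own value is given, replicate 1 before replicate 2, and no mean of 2 libraries is printed. DESeq2 1.42.0 served as an alternative. The scripts were tested on simulated data. Replicates differed beyond the counting error of UMIs, but that comparison does not separate differences between libraries from the sampling of cells. A gene at 0 UMIs in a group was compared with a floor of 3 UMIs over that group, which covers counting error only.

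The members, the 43 gene lists and the tests were chosen with earlier results of these data known. Named genes are the 15 most raised and 15 most lowered of the called genes averaging 20 CPM or more with groups apart, up to 4 genes per list by adjusted p, the 10 highest and 10 lowest class differences, and 12 genes fixed by name. Other list members are named to complete a list and were picked after their values were seen. Promoters came from RefSeq tables on GRCm38.p6. The alternatives were other scalings and tests, other filters on genes and cells, 4 libraries only, the replicate number as a block, and each library left out. Totals without mucus genes, the ISRE and the sterol element were added after the data were seen.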

Additional observations from a re-analysis of the deposited data

Results flagged for a closer look

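The response of 32 named genes differed between goblet cells and enterocytes in the test of the difference itself. That test was edgeR's quasi-likelihood test of class by treatment, at an adjusted p below 0.05. Of these genes, 20 were named because they had the 10 highest and 10 lowest called values of the same test. Their number therefore cannot be set beside the 4.81% of all genes tested that were called. Values are goblet minus enterocyte log2 responses at 13 h.

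ER folding and stress genes had lower values, Pdia6 -2.91, Hyou1 -2.47, Txndc5 -1.95, Hspa5 -1.75, Agr2 -1.42, Xbp1 -1.22, Dpagt1 -1.18 and Atf4 -0.58. So had Wars -2.13, Nucb2 -1.88, a calcium-binding protein, and Hid1 -1.91, a factor of granule biogenesis, as well as the interferon genes Ifit1 -2.30, Isg15 -1.94 and Apol9a -2.26 and the sterol gene Acat2 -2.14. The goblet markers Muc2 -1.30, Atoh1 -1.03 and Clca1 -0.78 were measured in enterocytes at low levels, Muc2 at 12 and 6.75 CPM in DMSO and 9.45 and 7.07 CPM at 13 h. Agr2, named above with the ER genes, was also low in enterocytes, at 0.231 and 0.208% of its goblet level in DMSO. Atoh1 lost its call without each DMSO or 13 h library (adjusted p = 0.079 to 0.23) and Clca1 without DMSO replicate 1 (0.26) or 13 h replicate 2 (0.064). Without 13 h replicate 1, Apol9a and Acat2 were not called (adjusted p = 0.22 and 0.059), and Atf4 was not without DMSO replicate 1 or 2 (0.074 and 0.064).

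Higher values were found for the secreted factors Stc2 2.55, Gdf15 2.37 and Nts 2.51, the enzymes Cyb5r1 2.53, Phgdh 2.39, Tat 1.75 and Gsta1 1.55, the metallothioneins Mt2 1.74 and Mt1 1.45, the noncoding RNA Epb41l4aos 1.57 and the actin gene Acta1 1.55. Nts, Acta1, Gsta1, Mt2, Cyb5r1 and Epb41l4aos lost their calls by DESeq2. They also did without 13 h replicate 1 (adjusted p = 0.22, 0.9, 0.52, 0.51, 0.13 and 0.24). Without DMSO replicate 1, Nts, Acta1, Cyb5r1 and Epb41l4aos were not called (adjusted p = 0.27, 0.34, 0.36 and 0.25). Without DMSO replicate 2, Gdf15, Tat, Nts, Gsta1, Mt2 and Cyb5r1 were not (0.41, 0.075, 0.23, 0.8, 0.06 and 0.14).

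In 14 genes the 2 classes were called in opposite directions and the class difference was called too. Of these, Mt1 rose in goblet cells (log2 0.56 (SE 0.19)) and fell in enterocytes (log2 -0.93 (SE 0.08)). Gabarapl1, of the autophagy machinery, did the same, at 1.02 (SE 0.31) and -0.29 (SE 0.09) (difference 1.27). The ligase Rnf185 (difference -1.42) and the protease Tpsg1 (difference -1.30) fell in goblet cells and rose in enterocytes, Tpsg1 at -0.60 (SE 0.10) and 0.66 (SE 0.22). The goblet calls of Mt1, Gabarapl1 and Rnf185 were lost without DMSO replicate 1 (adjusted p = 0.35, 0.066 and 0.11). Mt1 was also lost without 13 h replicate 1 (0.33), Gabarapl1 without DMSO replicate 2 (0.17) or 13 h replicate 2 (0.23), and Rnf185 without each of the other DMSO and 13 h libraries (0.089 to 0.21). The class difference of Gabarapl1 was likewise not called without DMSO replicate 1 (0.077), DMSO replicate 2 (0.16) or 13 h replicate 2 (0.26).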

How the results depend on the processing

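In goblet cells, 849 genes were higher and 905 lower. Total counts gave 1256 and 580, DESeq2 425 and 372, and leaving out each of 6 libraries between 500 and 846 higher and between 533 and 925 lower. With a library left out, the lone library of its group is assumed to vary like the others. For class by treatment, 155 and 348 became 271 and 188 with total counts, 118 and 111 with DESeq2, and 88 to 212 and 122 to 366 without single libraries. DESeq2 left 760 and 5069 genes without an adjusted p. Beyond there being fewer samples in the fits with a library left out, the cause was not tested. The filters on cells, genes and doublets, size factors, 4 libraries only and totals without mucus genes kept both counts in goblet cells within 1.5 times.

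Of 176 named goblet results, 126 kept their direction and side of the threshold under all alternatives, as did 10 of 20 class differences. Signs turned for Clca1 in goblet cells, 0.16 without DMSO replicate 1 (-0.55 without replicate 2), Pcna, -0.041 and 0.20, and Nts, -3.55 without 13 h replicate 1 and 2.24 without replicate 2. The class difference of Nts turned likewise, from 4.19 to -2.97.

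Replicate numbers did not pair the libraries: deviations of same-numbered DMSO and 13 h libraries correlated at r = -0.02 across genes. The replicate block gave 852 higher and 905 lower in goblet cells and 166 and 376 for class by treatment.

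The goblet share of cells rose to between 12.5% and 13.4% in the 4 libraries when cells were held to 10% mitochondrial UMIs. In DMSO replicate 1 that filter left 95 of 105 goblet cells and 619 of 1046 enterocytes. Counting error is largest, relative to the level, for genes of few UMIs, such as Ern2 with 35 and 31 UMIs in DMSO.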

Other observations

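Lists not set against enterocytes above gave the same comparison of levels, as medians of the goblet to enterocyte ratio after adding 0.5 CPM, with no test. In DMSO, goblet cells had the higher level in 15 of 20 disulfide isomerases and oxidases (median ratio 2.08), and at 13 h in 9 (median 0.972). For the translocon and signal peptidase these were 23 and 22 of 24, with median ratios of 1.84 and 1.41. Genes of amino acid synthesis and transport were higher in goblet cells in 18 of 23 cases in DMSO (median 2.59) and in 23 at 13 h (median 2.07). Members of the PERK-ATF4 arm were higher in 15 of 21 in both groups, with median ratios of 1.30 and 1.35.

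Derl3, at 0 UMIs in DMSO goblet cells, was at 0.462 and 0.538 CPM in DMSO enterocytes and rose there to 57.7 and 62.6 CPM, against 35.1 and 27 CPM in 13 h goblet cells. Tff2 was at 9.24 and 18.6 CPM in 13 h goblet cells and at 0.0808 and 0 CPM in 13 h enterocytes.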
